A study of Mus musculus with 18 samples.

Results

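The postsynaptic density is the protein-rich layer under the membrane of excitatory synapses, and 41 mRNAs of postsynaptic scaffolds and signalling proteins were followed here by gene symbol, nearly all of them from that layer. Gphn, the scaffold of inhibitory synapses, is also among the 41. All 41 symbols were found among the 13973 genes of the table, from which the filter on low counts removed none. In this layer, membrane-associated guanylate kinases (MAGUKs, the DLG family) hold receptors, DLGAP proteins link them to SHANK scaffolds, and HOMER proteins link SHANKs to metabotropic receptors. Adaptors, GTPase regulators and actin regulators attach to that lattice and shape the dendritic spine. Several of these mRNAs are known targets of FMRP, the RNA-binding protein that is lost in fragile X syndrome and in the Fmr1 knockout mouse.

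The libraries came from acute hippocampal-cortical slices of male C57BL/6N mice, wild type (WT) or Fmr1 knockout (KO), at postnatal day 28 to 35. Slices received 20 µM homoharringtonine (HHT) or its DMSO vehicle for 30 min, and each lysate gave an input sample, a medium polysome pool and a heavy polysome pool. HHT stops ribosomes that have just started a coding sequence while ribosomes further along continue to the end. Each genotype had 2 HHT lysates and 1 vehicle lysate, so that 18 libraries formed 12 groups. A lysate pooled 10 slices from 2 to 3 mice of mixed cell types, and in such tissue fewer cells of a type and less RNA per cell cannot be told apart. Heavier polysomes carry more ribosomes per mRNA, and the series addressed how FMRP affects ribosome movement along mRNAs. The pools were set by immunoblots of FMRP across gradient fractions and how they were set in the KO, which lacks it, is not stated in the labels. Slices were homogenised without detergent and spun at 2000 g and 10000 g, and 1% NP-40 was added to the supernatant afterwards. The KO was a constitutive mouse line backcrossed to C57BL/6.

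HHT acts at the start of the coding sequence, and the opening 30 bases of 4 members that moved in opposite directions between the medium and heavy pools are therefore shown. They were read from GENCODE M21 (GRCm38), 5′ to 3′, from the longest annotated coding sequence of each gene, with the start codon in capitals.
Gphn: ATGgcgaccgagggaatgatcctcaccaac
Baiap2: ATGtcgctttcacgctcggaggagatgcac
Agap2: ATGagccggggcgcgggcgcgcttcagcgc
Nsmf: ATGggtgccgccgcctccaggaggagggcg
The genes lie at chr12:78226379-78684772, chr11:119942763-120006782, chr10:127075284-127093169 and chr2:25054355-25062881, all on the plus strand. Gphn (gephyrin, the scaffold of inhibitory synapses) and Baiap2 (IRSp53, a membrane-bending actin adaptor) rose in medium and fell in heavy polysomes with HHT. Agap2 (an Arf GTPase-activating protein, also called PIKE) and Nsmf (Jacob, a synapse-to-nucleus messenger) did the reverse. The letters ATGG, a G directly after the start codon, opened the coding sequence of Gphn and Nsmf but not of Baiap2 or Agap2. Over the members, 15 of 41 coding sequences opened with ATGG, against 52.4% of 13047 genes with an annotated coding sequence.

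Library totals ran from 6226237 to 13834652 counts, and values below are CPM, counts scaled to a common library total with TMM, a factor that aligns the bulk of genes between libraries. Fmr1 was at 13.9 to 32.2 CPM in the 9 WT libraries and at 4.63 to 8.53 CPM in the 9 KO libraries, without overlap. Markers of excitatory neurons summed to 9837 to 11430 CPM in HHT inputs and 9339 to 9816 CPM in vehicle inputs, so that neuronal mRNA was present in every library, with 0 of 8 markers under 1 CPM. Markers of other cell types moved with HHT in all 3 fractions, and their part in the results below was not tested. All 12 microglial markers summed to 217 to 267 CPM in HHT inputs against 104 to 146 CPM in vehicle inputs, with 1 of them under 1 CPM. For 11 vessel markers the sums were 90.0 to 106 CPM against 36.9 to 43.3 CPM, and for 12 astrocyte markers 3082 to 3541 CPM against 1967 to 2321 CPM. In medium polysomes, where the excitatory sums were 10110 to 10990 CPM against 8859 to 9211 CPM, astrocyte markers stood at 3536 to 4008 CPM under HHT against 1608 to 2087 CPM. The vessel sums there were 64.95 to 84.8 CPM against 37.2 to 43.4 CPM, and 10 markers of inhibitory neurons summed to 1043 to 1231 CPM against 706 to 745 CPM. In heavy polysomes the excitatory sums stood lower under HHT, at 10400 to 10840 CPM against 13850 to 14370 CPM, and so did the inhibitory ones, at 922 to 1025 CPM against 1217 to 1243 CPM. A sum weighs abundant markers most. Of the 10 inhibitory markers 5 were called higher and 2 lower in heavy, with a median log2 change of 0.42. Excitatory markers had a median of -0.34 in heavy, and of -0.13 in input, where their sums were higher. Vessel sums in heavy were at 50.5 to 68.8 CPM against 35.6 to 36.2 CPM, while astrocyte and microglial sums overlapped with vehicle. The sum of 11 oligodendrocyte markers was above vehicle in each fraction, at 3705 to 4621 CPM against 3377 to 3607 CPM over all 3. Single markers went both ways, with 6 called higher and 3 lower in medium, and 7 and 2 in heavy. Sums of the 13 markers of thalamus and striatum were above vehicle in input (319.7 to 425 CPM against 272 to 289.8 CPM) and medium (405 to 531 CPM against 388 to 403 CPM), and overlapped in heavy.

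The levels of the members spanned more than 2 orders of magnitude. Levels between genes are given as the deposited per-length values (rescaled TPM) in the vehicle inputs of WT and KO, with 1 library each. Nrgn (neurogranin, which binds calmodulin) was the most abundant member at 5488 and 5894, above 99.98% of all genes in its mean. Dlg4 (PSD-95, which anchors glutamate receptors) followed at 1064 and 1070, and Ddn (dendrin) at 909 and 926. Homer2 and Grip1 (a scaffold for AMPA receptors) were the lowest, at 14.8 and 12.9 for Homer2 and 16.6 and 13.5 for Grip1. Within families, Dlg4 was the highest DLG, Dlgap1 (412 and 373) and Dlgap4 (387 and 377) the highest DLGAPs, Shank1 (131 and 132) the highest SHANK, and Homer1 (174 and 152) the highest HOMER. Dlgap1 and Dlgap4 overlapped between the 2 libraries, so that their order did not exceed the spread.

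In input RNA, which stands for the cleared lysate before the gradient, no member passed the threshold (adjusted p under 0.05) with HHT. Over all genes 12.2% were called higher and 0.215% lower. The members' median log2 change was -0.15, with 39 of 41 below 0, against a median of 0.00 over all genes. Homer1 came closest: inputs held 145, 139, 137 and 89.2 CPM under HHT against 186 and 164 CPM with vehicle (log2 change -0.46 ± 0.15 SE, edgeR adjusted p = 0.0582). The KO replicate 2 library was the lowest for Homer1, and no HHT library reached the vehicle range. In input 14 of 41 members had all HHT libraries below vehicle, against 11.3% of all genes, and 0 had all above, against 18.4%. By edgeR, 6 members were at an unadjusted p under 0.05, DESeq2 called 1 member lower and limma called 0. Total-count scaling called 5 members lower, and leaving out KO HHT replicate 1 called 2.

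In medium polysomes 12 members rose and 11 fell with HHT, and in heavy polysomes 13 rose and 10 fell. The background over all genes was 25.4% higher and 21.5% lower in medium, and 27.1% and 24.7% in heavy, so that members were called in both fractions at rates near those of all genes. The median SE was 0.12 for members and 0.18 for all genes in medium, and 0.12 and 0.19 in heavy. A change of equal size thus passes more easily in a member, and member SEs were the smaller in the other comparisons too. Medians were close to 0 in both fractions, -0.01 in medium and 0.07 in heavy, with members moving in both directions. With RLE factors, another scaling, the heavy split was 8 higher and 14 lower, and that scaling moved the median of all genes in heavy by -0.11. DESeq2 gave the same counts of 8 and 14, while limma on rescaled TPM gave 21 and 6. The heavy rises of Begain, Shank1, Shank3, Psd and Ppp1r9b were the 5 lost with RLE factors and with DESeq2, at log2 changes of 0.20 to 0.31. With total counts the medium split was 10 higher and 16 lower, with a shift of the median of all genes by -0.11. Leaving out WT replicate 2 gave 13 and 7 in medium, and limma gave 14 and 7. Calls lost with limma were those of Agap2, Dlg4, Iqsec3 and Ppp1r9b in medium and Kalrn, Synpo, Cyld and Dlg1 in heavy. The plot of changes by fraction shows all members, grouped by role.

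**Figure D1:**
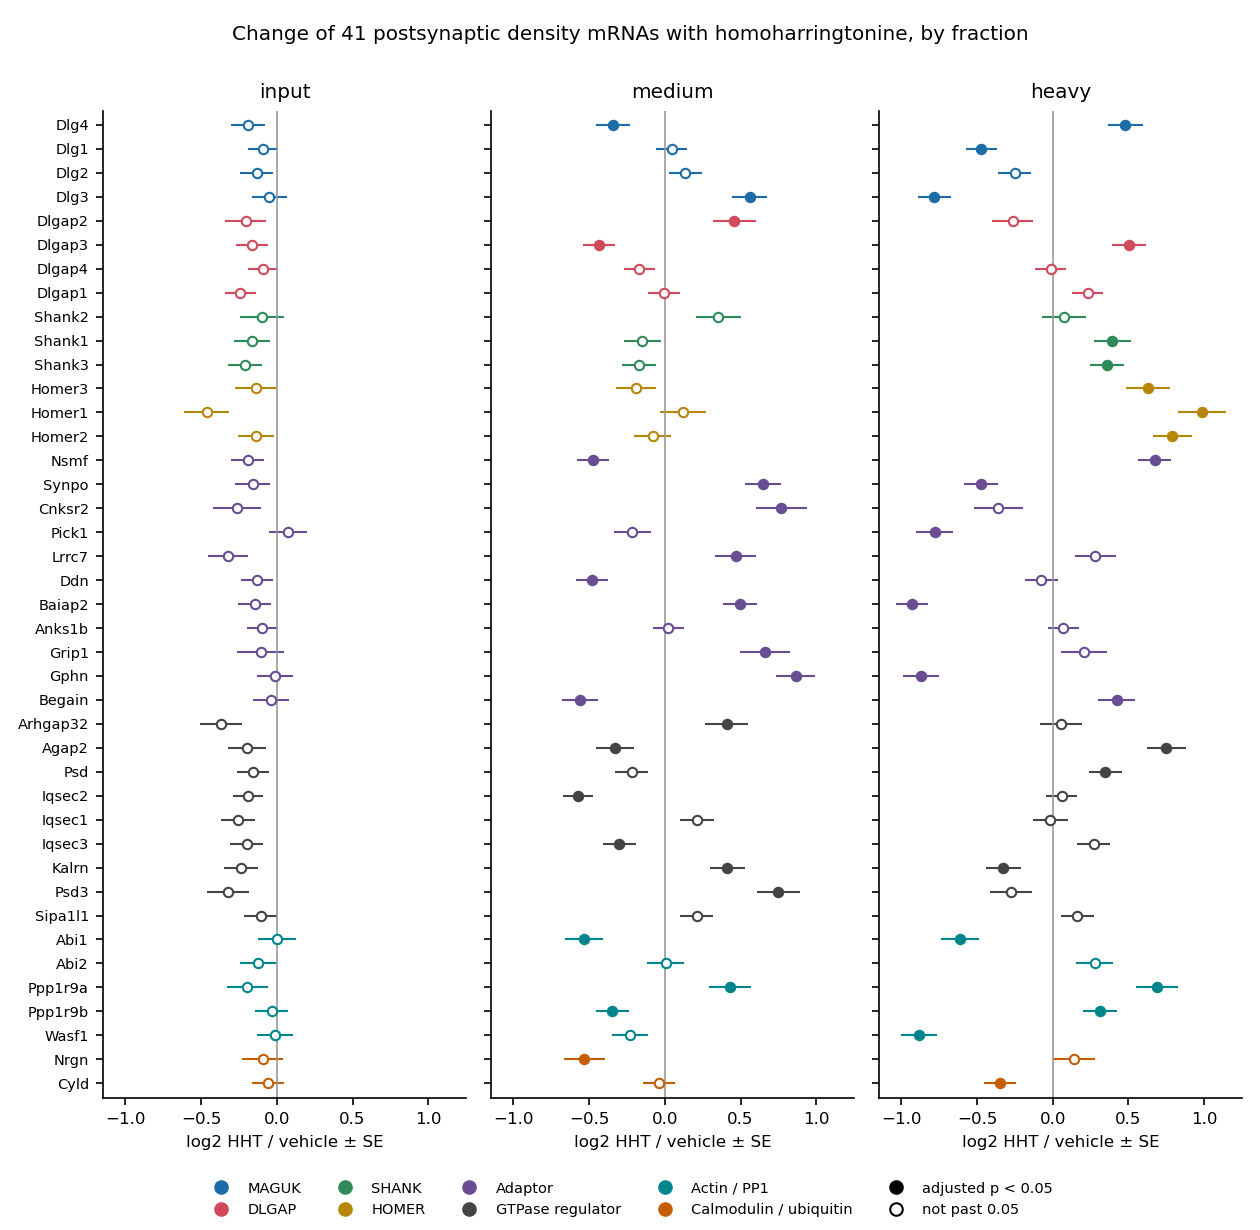
Log2 change of HHT against vehicle with its SE (x axis) for each of the 41 members (rows, coloured by role) in input, medium and heavy libraries; filled points passed an adjusted p of 0.05. No input point is filled, and filled points lie on both sides of 0 in medium (12 right, 11 left) and heavy (13 right, 10 left).

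The direction in medium polysomes often differed from that in heavy polysomes. Rising in medium and falling in heavy were Dlg3, Baiap2, Gphn, Synpo and Kalrn, which are 5 of 41 members against 4.37% of all genes (611). Falling in medium and rising in heavy were Dlg4, Dlgap3, Nsmf, Begain, Agap2 and Ppp1r9b, which are 6 of 41 members against 1.9% of all genes (265). These counts and shares are for the main setting. Over 24 alternatives to the 2 calls, a call weakened in 10 for Ppp1r9b, 6 for Agap2 and Kalrn, and 5 for Dlg4. It did so in 3 for Begain and Synpo, 1 for Dlg3, Baiap2 and Nsmf, and 0 for Gphn and Dlgap3. Only Ppp1r9a rose in both, where 15.9% of all genes did, and only Abi1 fell in both, against 5.79%. The HHT shift of the heavy to medium ratio, a comparison added after these values were seen, is the difference of the same 2 changes, so that for these 11 members its direction followed from how they were picked. Over all 41 members it was called higher for 15 and lower for 11, against 18.1% and 18.4% of all genes.

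**Figure D2:**
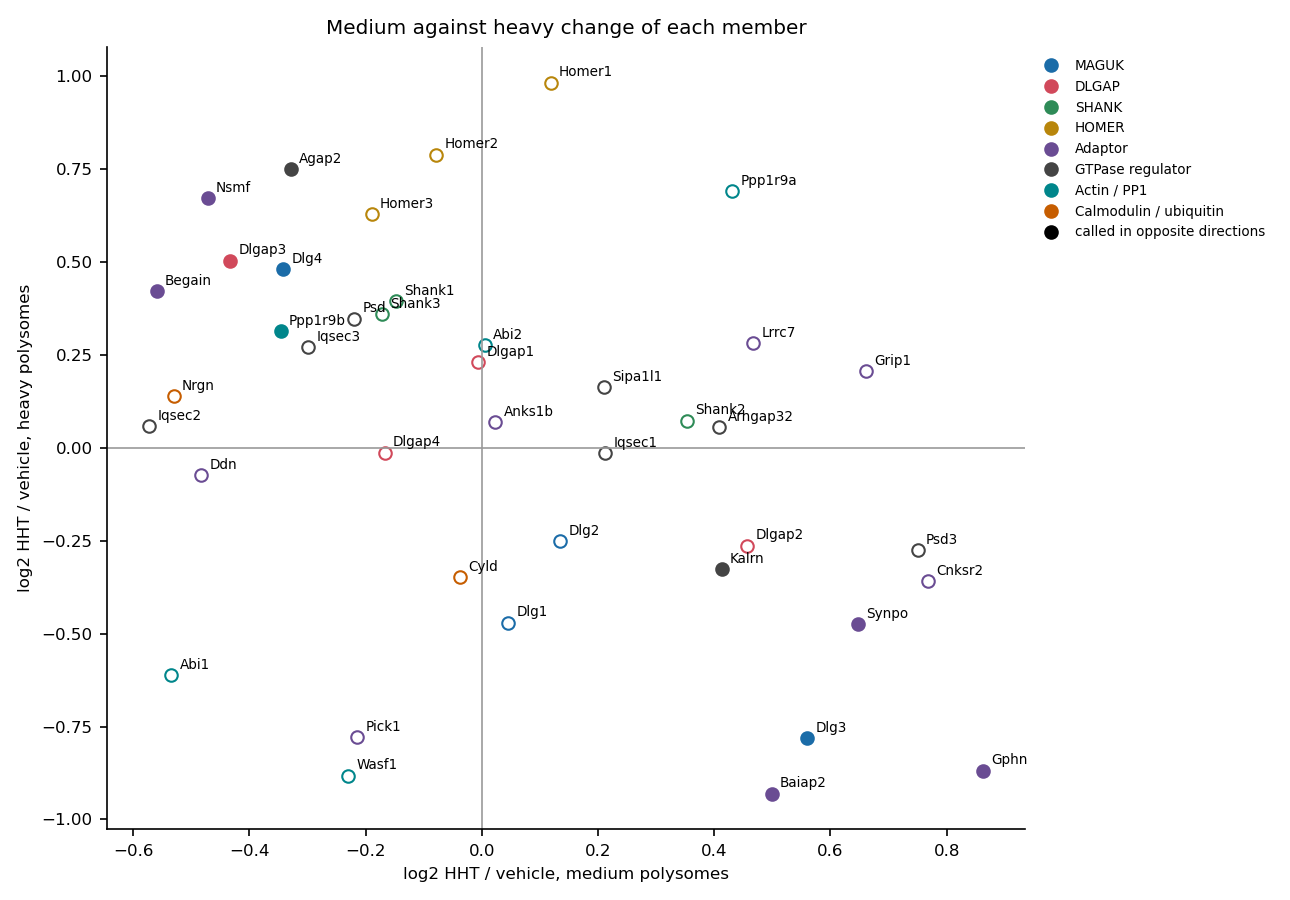
Each point is 1 member, with its log2 change of HHT against vehicle in medium polysomes (x axis) and in heavy polysomes (y axis), coloured by role; filled points were called in opposite directions in the 2 pools. The 5 filled points at the lower right rose in medium and fell in heavy, and the 6 at the upper left did the reverse.

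Per-library values are given in the order WT replicate 1, WT replicate 2, KO replicate 1 and KO replicate 2 for HHT, then WT and KO for vehicle. Among the MAGUKs, Dlg3 (SAP102) and Dlg4 moved in opposite directions. Dlg3 held 323, 289, 336 and 342 CPM under HHT against 194 and 246 CPM with vehicle in medium polysomes (log2 change 0.56 ± 0.12 SE, edgeR adjusted p = 0.00168). Heavy libraries gave it 371, 385, 367 and 435 CPM under HHT against 676 and 663 CPM with vehicle (log2 change -0.78 ± 0.11 SE, edgeR adjusted p = 6.07e-05). The HHT libraries were thus above both vehicle libraries in medium and below both in heavy. Such a lack of overlap was common. In medium 15 of 41 members lay wholly above vehicle and 16 wholly below, against 33.9% and 31.5% of all genes. In heavy 18 lay above and 14 below, against 35.2% and 32.9% of all genes. Dlg4 showed the mirror image, with 1320, 1330, 1356 and 1576 CPM under HHT against 1811 and 1724 CPM with vehicle in medium (log2 change -0.34 ± 0.11 SE, edgeR adjusted p = 0.0235). In heavy it held 1304, 1261, 1239 and 1292 CPM under HHT against 944 and 885 CPM with vehicle (log2 change 0.48 ± 0.12 SE, edgeR adjusted p = 0.00344). Neither pool overlapped with vehicle for Dlg4, but its medium call was lost without WT replicate 1, WT replicate 2 or KO replicate 1, with a log2 change between -0.40 and -0.31 over the 4 omissions. As a description, the shift of the heavy to medium ratio was -1.34 ± 0.16 SE for Dlg3 and 0.82 ± 0.16 SE for Dlg4 on the log2 scale. Dlg1 (SAP97) fell in heavy alone among its fractions (log2 change -0.47 ± 0.10 SE, edgeR adjusted p = 0.00129), and Dlg2 (PSD-93) passed in none, at 0.13 in medium and -0.25 in heavy.

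The DLGAP family, which bridges MAGUKs and SHANKs, held 1 member called higher and 1 called lower in medium. Dlgap2 rose there, with 97.5, 76.7, 103 and 90.3 CPM under HHT against 60.9 and 73.3 CPM with vehicle (log2 change 0.46 ± 0.14 SE, edgeR adjusted p = 0.0173), and was at -0.26 ± 0.14 SE in heavy, where it did not pass. The WT replicate 2 library of Dlgap2 lay just above the KO vehicle library in medium. Its medium call was lost without WT replicate 1 or KO replicate 1, at log2 changes of 0.37 to 0.54 over the omissions. Dlgap3 fell in medium, with 417, 361, 365 and 382 CPM under HHT against 515 and 514 CPM with vehicle (log2 change -0.43 ± 0.11 SE, edgeR adjusted p = 0.0046). Heavy libraries of Dlgap3 gave 613, 577, 524 and 555 CPM under HHT against 415 and 385 CPM with vehicle (log2 change 0.50 ± 0.11 SE, edgeR adjusted p = 0.00169). HHT and vehicle did not overlap in either pool for Dlgap3, and both calls held under every alternative tested, as did both calls of Gphn described further on. Dlgap1 and Dlgap4 passed in neither pool, with log2 changes between -0.17 and 0.23.

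No SHANK passed in medium, and 2 of 3 rose in heavy. Shank2 was the highest in medium, with 226, 182, 229 and 208 CPM under HHT against 154 and 178 CPM with vehicle (log2 change 0.35 ± 0.15 SE, edgeR adjusted p = 0.0653). Shank3 was the lowest there, with 125, 115, 116 and 116 CPM under HHT against 134 and 132 CPM with vehicle (log2 change -0.17 ± 0.11 SE, edgeR adjusted p = 0.227). All 4 HHT libraries of Shank2 were above vehicle and all 4 of Shank3 below it, but neither difference passed. In heavy polysomes Shank3 rose, with 301, 280.3, 253 and 269.6 CPM under HHT against 211 and 218 CPM with vehicle (log2 change 0.36 ± 0.11 SE, edgeR adjusted p = 0.0154), and Shank1 rose by 0.39 ± 0.12 SE (edgeR adjusted p = 0.0153). The heavy call of Shank1 was also lost without KO replicate 1 (0.36 to 0.43) and that of Shank3 without KO replicate 2 (0.33 to 0.39). Exons of Shank1 overlap 1700008O03Rik on the opposite strand, and the labels do not say whether the counting used strand.

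All 3 HOMER members rose in heavy polysomes and none passed in medium. Homer1 showed the largest rise of the 41 members in heavy, with 209, 200.3, 253 and 210.3 CPM under HHT against 102 and 119 CPM with vehicle (log2 change 0.98 ± 0.16 SE, edgeR adjusted p = 0.00016). In medium it held 237, 251, 211 and 194 CPM under HHT against 213 and 197 CPM with vehicle (log2 change 0.12 ± 0.15 SE, edgeR adjusted p = 0.555), and the libraries overlapped. The gene encodes long scaffolding forms and a short activity-induced form that uncouples the lattice, which gene-level counts do not separate. Homer3 stood at 39.6, 35.0, 32.4 and 37.2 CPM under HHT against 44.1 and 38.3 CPM with vehicle in medium (log2 change -0.19 ± 0.13 SE, edgeR adjusted p = 0.269). In heavy, Homer3 held 35.8, 36.7, 35.5 and 38.5 CPM under HHT against 24.7 and 22.7 CPM with vehicle (log2 change 0.63 ± 0.14 SE, edgeR adjusted p = 0.00235). Homer2 rose as well (log2 change 0.79 ± 0.13 SE, edgeR adjusted p = 0.00018), and the 3 heavy calls held under every alternative tested. Exons of Homer3 overlap Ddx49 on the opposite strand.

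Among the 11 adaptors 6 rose and 3 fell in medium, and 2 rose and 4 fell in heavy. Gphn had the largest rise of any member in medium, with 87.1, 94.4, 77.8 and 77.7 CPM under HHT against 41.2 and 51.8 CPM with vehicle (log2 change 0.86 ± 0.13 SE, edgeR adjusted p = 0.000213). Its heavy libraries gave 88.4, 98.2, 82.3 and 88.7 CPM under HHT against 158 and 169 CPM with vehicle (log2 change -0.87 ± 0.12 SE, edgeR adjusted p = 4.24e-05). Under vehicle the heavy level of Gphn was above 3 times its medium level, while under HHT the 2 pools were nearly level. Baiap2 moved in the same directions, with 503, 479, 489 and 514 CPM under HHT against 320.3 and 385 CPM with vehicle in medium (log2 change 0.50 ± 0.11 SE, edgeR adjusted p = 0.00255). In heavy it held 634, 726, 586 and 648 CPM under HHT against 1241 and 1227 CPM with vehicle (log2 change -0.93 ± 0.11 SE, edgeR adjusted p = 1.43e-05), the largest fall of the members there. The highest HHT library of Baiap2 in heavy, WT replicate 2, was still far below both vehicle libraries. Synpo (synaptopodin, of the spine apparatus) gave 638, 604, 644 and 646 CPM under HHT against 342 and 478 CPM with vehicle in medium (log2 change 0.65 ± 0.12 SE, edgeR adjusted p = 0.000784). Its heavy libraries held 699.9, 694, 669 and 733 CPM under HHT against 1001 and 942 CPM with vehicle (log2 change -0.47 ± 0.11 SE, edgeR adjusted p = 0.00322). For Gphn, Baiap2 and Synpo no library of either treatment crossed into the range of the other, with HHT on top in medium and vehicle on top in heavy. Within a pool such a separation was common over all genes.

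Begain and Nsmf moved the other way. Begain, which binds the guanylate kinase domain of PSD-95, held 87.4, 83.7, 74.1 and 77.6 CPM under HHT against 126 and 112 CPM with vehicle in medium (log2 change -0.56 ± 0.12 SE, edgeR adjusted p = 0.00183). Heavy libraries gave 124, 122, 98.5 and 108 CPM under HHT against 84.0 and 84.1 CPM with vehicle for Begain (log2 change 0.42 ± 0.12 SE, edgeR adjusted p = 0.0111). The 2 KO libraries of Begain were the lower of the 4 HHT libraries in both pools. Nsmf stood at 497, 466, 504 and 513 CPM under HHT against 704 and 669 CPM with vehicle in medium (log2 change -0.47 ± 0.10 SE, edgeR adjusted p = 0.0025). In heavy polysomes it held 796, 817, 716 and 786 CPM under HHT against 514 and 465 CPM with vehicle (log2 change 0.67 ± 0.11 SE, edgeR adjusted p = 0.000181). Neither mRNA overlapped with vehicle in either pool. Among the remaining adaptors, Cnksr2 (0.77 ± 0.17 SE, edgeR adjusted p = 0.0023), Grip1 (0.66 ± 0.17 SE, edgeR adjusted p = 0.00526) and Lrrc7, densin-180 (0.47 ± 0.14 SE, edgeR adjusted p = 0.0127), rose in medium and did not pass in heavy. Ddn fell in medium (-0.48 ± 0.11 SE, edgeR adjusted p = 0.00233), Pick1, which binds GluA2, fell in heavy (-0.78 ± 0.12 SE, edgeR adjusted p = 0.000137), and Anks1b passed in neither.

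**Figure D3:**
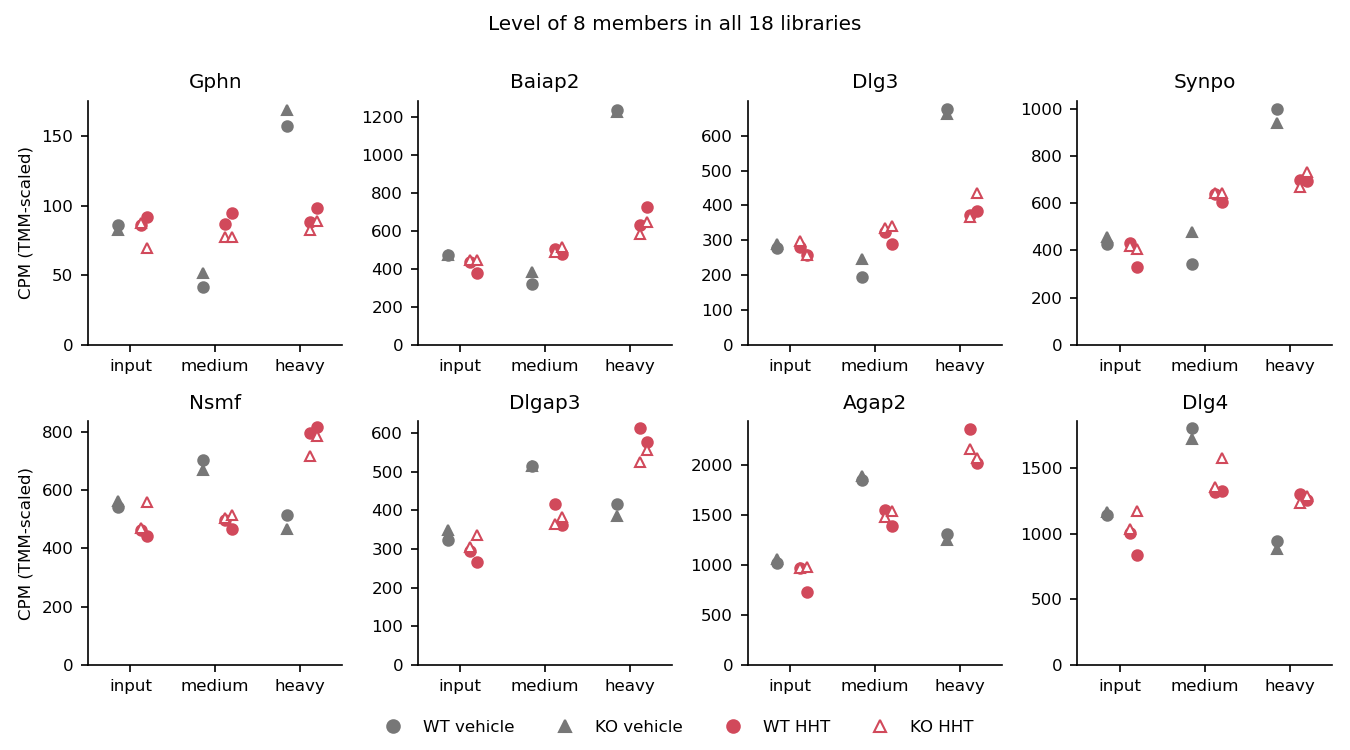
TMM-scaled CPM (y axis, from 0) of 8 members in all 18 libraries, by fraction (x axis): vehicle in grey, HHT in red, WT as circles and KO as triangles (open for HHT). In the upper row (Gphn, Baiap2, Dlg3, Synpo) red points lie above grey in medium and below in heavy, and in the lower row (Nsmf, Dlgap3, Agap2, Dlg4) the order is reversed.

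The 9 regulators of small GTPases, which control actin and membrane traffic in spines, gave 3 higher and 3 lower calls in medium and 2 higher and 1 lower in heavy. Psd3 (an Arf6 exchange factor) rose in medium, with 504, 475, 489 and 499 CPM under HHT against 281 and 305 CPM with vehicle (log2 change 0.75 ± 0.14 SE, edgeR adjusted p = 0.00101). Iqsec2 (an Arf exchange factor bound to PSD-95) fell, with 302, 302, 324 and 329 CPM under HHT against 459.7 and 475 CPM with vehicle (log2 change -0.57 ± 0.10 SE, edgeR adjusted p = 0.000542). The treatments did not overlap in medium for either mRNA. Neither passed in heavy, at -0.28 ± 0.14 SE for Psd3 and 0.06 ± 0.10 SE for Iqsec2. Kalrn (kalirin, a Rac exchange factor) gave 692, 624, 727 and 687 CPM under HHT against 464 and 567 CPM with vehicle in medium (log2 change 0.41 ± 0.12 SE, edgeR adjusted p = 0.0106). Its heavy libraries held 1063, 1148, 1118 and 1234 CPM under HHT against 1386 and 1475 CPM with vehicle (log2 change -0.33 ± 0.11 SE, edgeR adjusted p = 0.027), a call lost without WT replicate 1 or KO replicate 1, with log2 changes of -0.36 to -0.30. Kalrn thus stood above vehicle in all 4 HHT libraries in medium and below it in all 4 in heavy. Agap2 held 1551, 1385, 1481 and 1536 CPM under HHT against 1848 and 1891 CPM with vehicle in medium (log2 change -0.33 ± 0.12 SE, edgeR adjusted p = 0.0411), a call lost on 3 of the 4 omissions (WT replicate 2, KO replicate 1 and KO replicate 2), at -0.37 to -0.29. In heavy it rose clear of vehicle, with 2356, 2021, 2155 and 2068 CPM under HHT against 1308 and 1251 CPM with vehicle (log2 change 0.75 ± 0.13 SE, edgeR adjusted p = 0.000261). Arhgap32 rose in medium (0.41 ± 0.14 SE, edgeR adjusted p = 0.0306), Iqsec3 fell there (-0.30 ± 0.11 SE, edgeR adjusted p = 0.0358), and Psd rose in heavy (0.35 ± 0.11 SE, edgeR adjusted p = 0.0158). Each of these 3 calls was lost on at least 1 omission of a lysate: Arhgap32 without WT or KO replicate 1 (0.33 to 0.48), Iqsec3 on all 4 (-0.32 to -0.28), Psd without WT replicate 2 (0.32 to 0.36). Exons of Psd overlap Nfkb2 on the opposite strand. Iqsec1 and Sipa1l1 passed in neither pool.

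The actin regulators and protein phosphatase 1 targeting subunits, 5 in all, split. Ppp1r9a (neurabin) rose in both pools, with 367, 334, 344 and 315 CPM under HHT against 256 and 248 CPM with vehicle in medium (log2 change 0.43 ± 0.14 SE, edgeR adjusted p = 0.0188) and 0.69 in heavy (edgeR adjusted p = 0.000841). Its paralog Ppp1r9b (spinophilin) held 788, 722, 799 and 844 CPM under HHT against 1056 and 949 CPM with vehicle in medium (log2 change -0.35 ± 0.11 SE, edgeR adjusted p = 0.019). In heavy, Ppp1r9b gave 871, 850.4, 817 and 870.5 CPM under HHT against 646 and 728 CPM with vehicle (log2 change 0.31 ± 0.11 SE, edgeR adjusted p = 0.0313). No HHT library of Ppp1r9b overlapped with vehicle, but the heavy call was lost on 3 of 4 omissions (WT replicate 1, WT replicate 2 and KO replicate 2, 0.29 to 0.32) and the medium call without WT replicate 2 (-0.38 to -0.32). The medium call of Ppp1r9a was lost without WT replicate 1 (0.38 to 0.46). Abi1, a subunit of the WAVE complex that activates Arp2/3, fell in both pools, with 115, 122, 117 and 127 CPM under HHT against 187 and 163 CPM with vehicle in medium (log2 change -0.53 ± 0.12 SE, edgeR adjusted p = 0.00313) and -0.61 in heavy (edgeR adjusted p = 0.000933). Exons of Abi1 overlap Pdss1 on the opposite strand. Wasf1 (WAVE1) fell in heavy (-0.88 ± 0.12 SE, edgeR adjusted p = 4.11e-05), and Abi2 passed in neither pool.

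Of the remaining pair, Nrgn fell in medium, with 2636, 3140, 2962 and 3390 CPM under HHT against 4482 and 4269 CPM with vehicle (log2 change -0.53 ± 0.13 SE, edgeR adjusted p = 0.00561), and did not pass in heavy (0.14 ± 0.14 SE). Cyld, a deubiquitinase of the postsynaptic density, was at 98.2, 108, 94.7 and 96.4 CPM under HHT against 106 and 97.6 CPM with vehicle in medium (log2 change -0.04 ± 0.11 SE, edgeR adjusted p = 0.798) and fell in heavy (-0.35 ± 0.10 SE, edgeR adjusted p = 0.0126). HHT libraries overlapped with vehicle for Cyld in medium and not for Nrgn.

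Where in the gradient the mRNAs lay was read as the ratio of a pool to the input of the same groups. Heavy polysomes of vehicle slices held 20 members above their input level and 5 below, and those of HHT slices 29 above and 4 below. The background was 24.8% and 21.7% with vehicle and 27.6% and 30.4% with HHT, and the members' median log2 ratio was 0.32 with vehicle and 0.64 with HHT. Medians over all genes, not matched for coding length, were -0.02 and -0.04. With vehicle the ratio was highest for Baiap2, at 1.39 ± 0.13 SE on the log2 scale (edgeR adjusted p = 4.18e-05), and lowest for Nrgn, at -0.78 ± 0.16 SE on the log2 scale (edgeR adjusted p = 0.00142). With HHT, Shank3 had 1.29 ± 0.09 SE on the log2 scale (edgeR adjusted p = 1.77e-06) and Arhgap32 1.29 ± 0.12 SE on the log2 scale (edgeR adjusted p = 2.69e-06), the highest values of the members. Abi1 and Nrgn had the lowest, at -0.55 ± 0.10 SE on the log2 scale (edgeR adjusted p = 0.000482) for Abi1. Total-count scaling lowered the median of all genes by 0.39 on the log2 scale for vehicle and by 0.24 for HHT, and the splits became 13 above and 14 below with vehicle and 23 and 6 with HHT. The 5 members below input with vehicle were 3 without WT replicate 1 or WT replicate 2, and 3 with RLE factors.

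Medium polysomes held 7 members above and 8 below input with vehicle (10.2% and 9.5% of all genes) and 13 above and 2 below with HHT (13.4% and 17.0%). Homer1 had the highest HHT ratio, at 0.81 ± 0.12 SE on the log2 scale (edgeR adjusted p = 0.000549), and Begain the lowest, at -0.43 ± 0.10 SE on the log2 scale (edgeR adjusted p = 0.00534), a call lost without WT or KO replicate 2 (-0.50 to -0.35). The HHT count of 15 fell to 3 without WT replicate 2 and to 5 without KO replicate 2. Heavy against medium gave 21 members higher and 10 lower with vehicle (25.9% and 28.1% of all genes) and 24 and 3 with HHT (19.0% and 16.8%). Under vehicle this ratio ran from -1.65 ± 0.16 SE for Nrgn to 1.82 ± 0.14 SE for Gphn. Under HHT it ran from -0.98 ± 0.11 SE for Nrgn to 1.22 ± 0.09 SE for Shank3, and Gphn was at 0.09 ± 0.10 SE, where it did not pass. With total counts the splits were 15 and 14 with vehicle and 20 and 6 with HHT.

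Tests of the change in these ratios found 12 members with a higher medium to input ratio under HHT and 1 lower, against 7.09% and 10.2% of all genes. Psd3 led, at 1.07 ± 0.20 SE on the log2 scale (edgeR adjusted p = 0.00508), followed by Cnksr2 and Gphn, and Begain was the 1 member called lower (-0.52 ± 0.17 SE), a call lost on every omission except that of KO replicate 1, and with RLE factors, DESeq2 and limma. That total of 13 fell to 7 without WT replicate 2 and to 4 without KO replicate 2. The heavy to input ratio rose for 14 members and fell for 6, against 12.6% and 16.3% of all genes. Homer1 rose most, at 1.45 ± 0.21 SE on the log2 scale (edgeR adjusted p = 0.000476), from a heavy to input ratio of -0.67 ± 0.18 SE with vehicle to 0.78 ± 0.12 SE with HHT. Homer2 and Homer3 crossed 0 as well, from -0.54 to 0.39 and from -0.30 to 0.47. The vehicle ratio of Homer3 did not pass, and the HHT ratio of Homer2 was lost without KO replicate 2 (0.33 to 0.45). Wasf1 fell most, at -0.87 ± 0.17 SE on the log2 scale (edgeR adjusted p = 0.00249), with Gphn, Pick1, Baiap2, Dlg3 and Abi1 also lower. Abi1 lost its call without KO replicate 1 or KO replicate 2 (-0.67 to -0.55), and Homer3 without KO replicate 2 (0.68 to 0.88). The total of 20 was 13 without KO replicate 2. Total-count scaling gave 20 higher and 5 lower.

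The rule did not use coding length, and the members were long. Their longest annotated coding sequences had a median of 992 codons against 480 over all genes, and 19 of 41 exceeded 1000 codons against 14.8% of all genes. Nrgn was the shortest at 78 codons and Kalrn the longest at 2964. Across the 41 members the heavy to input ratio under HHT ran with codons at a Spearman rho of 0.721, and across all 13047 genes at 0.643, as descriptions over genes of the same libraries. With vehicle the values were 0.485 and 0.596. For the change of HHT against vehicle, rho was 0.353 for members and 0.47 for all genes in medium. In heavy it was 0.024 and -0.031, and for the HHT shift of the heavy to medium ratio -0.207 and -0.427. Gphn and Dlg4, a single pair picked for lengths of 772 and 767 codons, moved in opposite directions in both pools. Homer1, Homer2 and Homer3, at 370, 354 and 359 codons, lay above the median of all genes of 251 to 500 codons under HHT, which was -0.23. All genes of that length had a median log2 change of 0.03 with HHT in heavy polysomes, where the 3 HOMER mRNAs rose. Within length bins the members' median heavy to input ratio under HHT was often closer to that of all genes than without matching. It was 0.24 against 0.32 at 751 to 1000 codons, the only bin where members were lower. At 1001 to 1500 codons it was 0.84 against 0.56, and from 2001 codons 1.13 against 1.11.

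**Figure D4:**
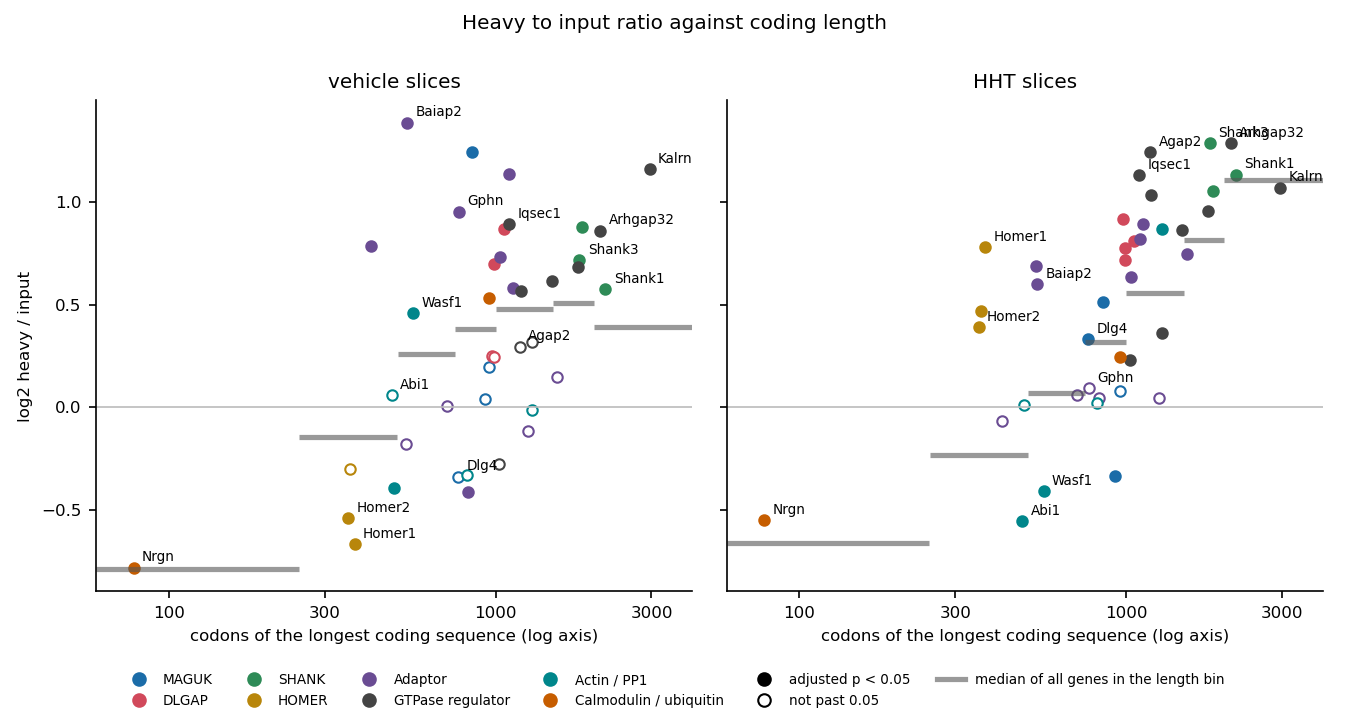
Log2 heavy to input ratio (y axis) against codons of the longest coding sequence (x axis, log scale) in vehicle and HHT slices; points are members coloured by role, filled where the adjusted p was under 0.05, and grey bars are medians of all genes in a length bin. The 3 HOMER members lie below 0 with vehicle and above the bar of their bin with HHT, and Baiap2 and Gphn drop between the panels.

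Other genes of the synapse were counted from lists written for comparison, and no difference between a list and the members was tested. Genes named from any comparison list were among its smallest edgeR adjusted p values for HHT against vehicle in medium, and were not picked as typical. Glutamate receptor subunits rose in 11 of 19 cases in input, 18 in medium and 19 in heavy, with none lower and a heavy median of 1.85 on the log2 scale. Grin1, the obligatory NMDA receptor subunit, changed by 1.85 ± 0.32 SE (edgeR adjusted p = 0.00261) in input and 2.61 ± 0.34 SE (edgeR adjusted p = 0.000131) in medium. Its heavy change was 1.99 ± 0.33 SE (edgeR adjusted p = 0.000183), and Gria1 of the AMPA receptor changed by 1.50 ± 0.23 SE (edgeR adjusted p = 9.47e-05) there. Receptor auxiliary genes rose in 6, 14 and 16 of 16 cases (input, medium, heavy), as for Shisa7 in medium at 1.68 ± 0.22 SE (edgeR adjusted p = 0.000133). Postsynaptic adhesion genes rose in 10, 17 and 18 of 18 measured cases, as for Lrrtm4 in medium at 1.28 ± 0.18 SE (edgeR adjusted p = 0.000188). Genes of the inhibitory postsynapse rose in 9, 13 and 13 of 14, as for Gabra3 in medium at 1.62 ± 0.17 SE (edgeR adjusted p = 9.52e-05).

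Lists of enzymes and actin regulators held calls in both directions, where 25.4% of all genes rose and 21.5% fell in medium, and 27.1% and 24.7% in heavy. Of 29 postsynaptic enzymes 0 passed in input, 12 rose and 7 fell in medium, and 5 rose and 9 fell in heavy. Camk2d (a subunit of calcium/calmodulin-dependent kinase II) changed by 0.66 ± 0.11 SE (edgeR adjusted p = 0.000428) in medium and by -0.70 ± 0.11 SE (edgeR adjusted p = 0.000105) in heavy. Of 23 WAVE, Arp2/3 and actin genes 0 passed in input, 3 rose and 10 fell in medium, and 1 rose and 13 fell in heavy. Cfl1 (cofilin) changed by -1.37 ± 0.16 SE (edgeR adjusted p = 9.52e-05) in medium, while Cyfip1, a partner of FMRP and WAVE, changed by 0.95 ± 0.14 SE (edgeR adjusted p = 0.000213). A predicted hydrophobic segment (19 residues with a mean Kyte-Doolittle hydropathy of at least 1.6) was found in 1 of 41 members, Kalrn, against 36.2% of genes. Kalrn lay just above the cut, at 1.63. Such a segment was found in all 19 glutamate receptor subunits, and in all 15 auxiliary and all 18 adhesion genes with a coding sequence. Of the other lists, 13 of 14 genes of the inhibitory postsynapse, 4 of 29 enzymes and 2 of 23 actin genes had one.

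**Figure D5:**
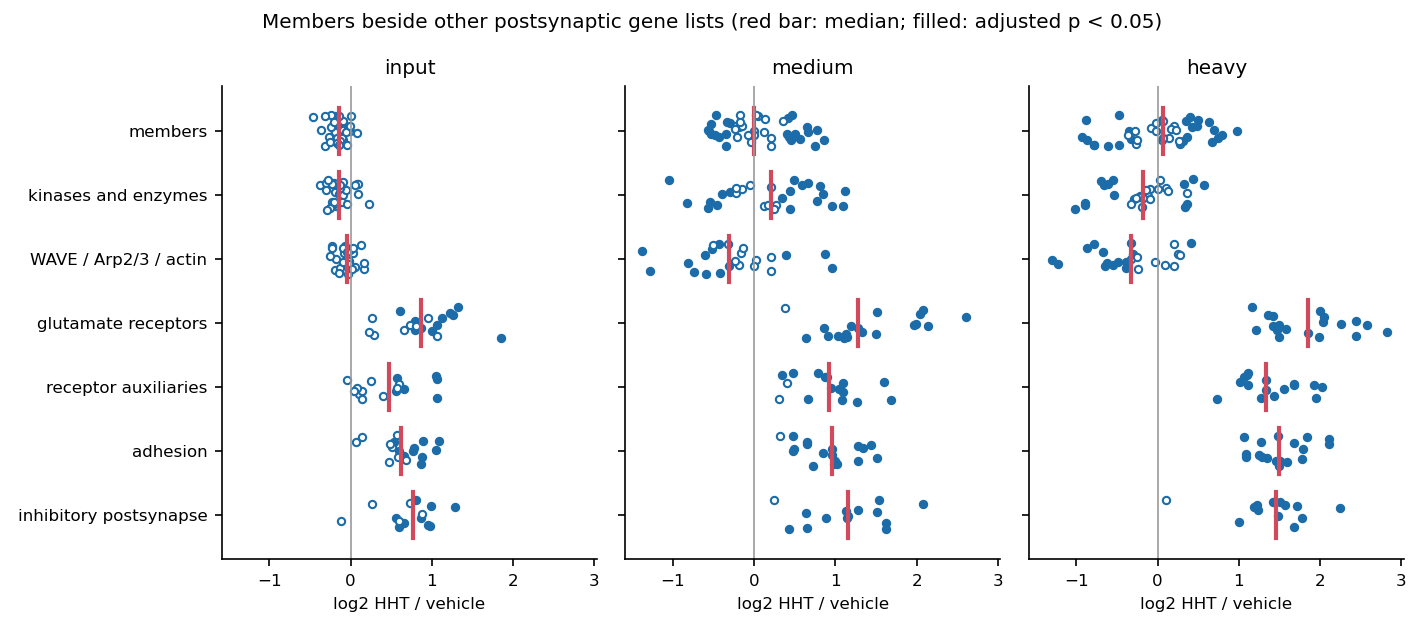
Log2 change of HHT against vehicle (x axis) for each gene (points, spread vertically for sight only) of the members and 6 comparison lists in input, medium and heavy; filled points passed an adjusted p of 0.05 and red bars are list medians. Receptor, auxiliary, adhesion and inhibitory lists lie to the right of 0, with heavy medians of 1.33 to 1.85, while the members' bars lie between -0.15 and 0.07.

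No member was called between KO and WT. Under HHT, KO against WT called 0 of 41 members in input, medium and heavy, and 0.0% of all genes in each. By edgeR, 1, 1 and 0 members were at an unadjusted p under 0.05, and DESeq2 and limma called 0. The smallest p in input belonged to Begain, with 108 and 139 CPM in KO against 99.1 and 93.1 CPM in WT (log2 difference 0.36 ± 0.14 SE, edgeR adjusted p = 0.89). Dlg4 followed at 0.26 ± 0.13 SE and Homer1 at -0.33 ± 0.17 SE, both at an edgeR adjusted p of 0.89. In medium the smallest belonged to Dlgap1, with 527 and 508 CPM in KO against 620.5 and 622 CPM in WT (-0.26 ± 0.12 SE, edgeR adjusted p = 0.999). Homer2 (0.24 ± 0.14 SE) and Grip1 (-0.30 ± 0.18 SE) came next. In heavy, Homer2 was at 0.27 ± 0.14 SE, Begain at -0.25 ± 0.14 SE and Psd3 at 0.28 ± 0.16 SE, with an edgeR adjusted p of 1.0. Over the members the differences ran from -0.33 to 0.36 in input, -0.30 to 0.24 in medium and -0.25 to 0.28 in heavy. With 2 lysates per genotype, SEs of the named members were 0.12 to 0.18, and Begain at 0.36 ± 0.14 SE did not pass. Fmr1 was not called either, at 8.53 and 5.07 CPM in KO against 22.4 and 32.2 CPM in WT inputs. The comparison could thus miss differences well above those SEs.

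The interaction of genotype and HHT called 0 members and 0.0% of all genes in each fraction by edgeR, with 0, 2 and 0 members (input, medium, heavy) at an unadjusted p under 0.05, and 0 by DESeq2 and limma. The smallest in medium were Lrrc7 (-0.61 ± 0.27 SE), Gphn (-0.55 ± 0.25 SE) and Grip1 (-0.66 ± 0.33 SE), all at an edgeR adjusted p of 0.999. In input they were Pick1 (0.36 ± 0.25 SE), Grip1 (0.32 ± 0.31 SE) and Dlgap4 (0.21 ± 0.20 SE). In heavy they were Cyld (0.27 ± 0.21 SE), Lrrc7 (0.33 ± 0.27 SE) and Begain (-0.26 ± 0.24 SE). The KO effect on the medium to input ratio under HHT called 0 members (0.0% of all genes). For the heavy to input ratio it called 0 members and 0.00716% of all genes, which is 1 gene. Begain had the smallest p in both, at -0.53 ± 0.20 SE for medium and -0.61 ± 0.20 SE for heavy (edgeR adjusted p = 1.0 for each), and 1 member was at an unadjusted p under 0.05 in each. With vehicle, 1 library per genotype, the median KO minus WT difference was 0.0036 for input, -0.0048 for medium and -0.02 for heavy. Differences ran from -0.28 to 0.18 in input, -0.20 (Homer3) to 0.48 (Synpo) in medium and -0.27 (Grip1) to 0.39 (Ppp1r9a) in heavy, with no test.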

How the data were processed

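Total RNA libraries (18) were grouped from the titles into 12 groups of genotype, treatment and fraction, and 6 lysates each gave an input, a medium and a heavy library. Tools listed in the submitters' processing notes, with no role given, are RSEM 1.2.11, Bowtie2 2.1.0, DESeq2 1.16.1 and Trimmomatic 0.32. The genome build listed there is mm10. The deposited table of estimated counts (expected counts) holds 13973 genes, and 0 of 251514 values are whole within 1e-06. A second deposited table, called TPM by the authors, is treated as a score and called rescaled TPM, since 10 of 18 columns sum to more than TPM can.

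Estimated counts were rounded and tested with edgeR 4.0.16 (R 4.3.3): TMM factors, filterByExpr, quasi-likelihood F-tests on 12 group means with 6 residual degrees of freedom, 2-sided, Benjamini-Hochberg at 0.05 within a comparison over all genes. The 3 fractions of a lysate are not independent, so that the spread may be understated. Vehicle groups hold 1 library each and borrow their spread from the HHT groups. DESeq2 1.42.0 and limma 3.58.1 on log2(rescaled TPM + 1) were alternatives, with other scalings, no filter, each HHT lysate left out, single fractions, single genotypes and blocks. The filter removed no gene, so that the setting without it repeats the main fit. The test was tried on simulated data: in medium it recovered 27% of changes of 0.5 and 94% of changes of 1 on the log2 scale, and in heavy 24% and 92%. The simulation changed 100 genes by each size, while 3551 genes were called higher and 3011 lower in medium in the data. Its shares therefore need not hold for the tests of the members.

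Input, medium and heavy of a lysate are paired by the protocol. Equal replicate numbers in WT and KO are not stated to share a preparation, and were not paired. The lowest rescaled TPM was 0.77 to 0.90 in HHT replicate 2 libraries and 1.00 to 1.04 in all others, and whether the replicates were processed apart was not tested.

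Members and lists were chosen with earlier results of these data known. Values in every library are given for the highest and lowest member of each role by change in medium, for members called in opposite directions, and differences for the 3 members with the smallest p in each genotype comparison. The heavy to medium shift was added after seeing the data, as was a comparison of each HHT replicate number with vehicle, which is not reported here. Coding sequences came from GENCODE M21 and matched 13047 genes.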

Additional observations from a re-analysis of the deposited data

How the results depend on the processing

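The total of called members (both directions) stayed within 1.5 times the main total in all settings other than those given here; splits by direction that moved further stand beside their results. In input with HHT, 0 members became 1 with RLE factors, 5 with total counts, 1 with DESeq2, and 0 to 2 when a lysate was left out. The genotypes taken singly have fewer libraries: KO alone called 5 members in medium (main 23). For medium against input under HHT (main 15) WT alone called 7, KO alone 4, and the omissions 3 to 12. For the same ratio with vehicle (main 15) WT alone called 8 and KO alone 0. The HHT shift of medium against input (main 13) gave 6 in WT alone, 0 in KO alone and 4 to 14 on omission. That of heavy against input (main 20) gave 10, 7 and 13 to 18. That of heavy against medium (main 26) gave 17 in WT alone and 9 in KO alone. Psd in heavy against input under HHT reversed with total counts, at -0.0083 against 0.23.

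With a replicate block, KO against WT called 0 members in each fraction. Replicate deviations of WT and KO correlated at 0.413 in input, 0.279 in medium and 0.0859 in heavy, with only 2 numbers to compare. With each lysate as a replicate block, the counts of called members were 20 for medium against input under HHT, 33 for heavy against input and 29 for heavy against medium, 18, 29 and 32 for the same ratios with vehicle, and 18 and 24 for the HHT shifts of medium and heavy against input, which changed no total by over 1.5 times; of the splits, members lower in heavy against input with vehicle went from 5 to 8 and those lower in the medium shift from 1 to 3.

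Limits: changes of 0.5 on the log2 scale were mostly missed in a simulation where far fewer genes changed than were called in the data. That recovery need not hold for the members, some of which passed at smaller changes. Vehicle had 1 lysate per genotype, and the amount of RNA per fraction was not used, so that only relative levels are given.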
